A study of Mus musculus with 12 samples.

Results

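Polysome-bound RNA of Cnot6l-/- (KO) and wild-type (WT) mouse oocytes was compared at the MI stage, the metaphase of the first meiotic division, reached here after 8 h of culture. The genes described are the 11667 of 23235 listed genes whose FPKM, a fragment count corrected for transcript length and library size, averaged at least 1 over all 12 libraries of the series. Dock10, at a mean of 1.0, lay just inside this limit, and Lair1, at 0.9992, just outside. The MI comparison rests on 4 of the 12 libraries, 2 from WT and 2 from KO. The other 8 are 2 of each genotype at the GV stage, the germinal vesicle stage of prophase arrest, and 2 of each genotype at MII after 16 h of culture. All mice were C57BL/6 and 21 days old. GV oocytes were labelled as taken 48 h after PMSG, the gonadotropin that makes follicles grow. RNA was purified from the polysome-bound fraction. Its pre-amplified cDNA, 500 pg per library, was cut and tagged with Tn5 transposase. Missing from the labels are the part of Cnot6l that was deleted and any Cre driver. They also do not say whether the 2 libraries of a group came from separate pools of oocytes, so p-values measure only the spread between these libraries, which may be technical.

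A full-grown oocyte stores maternal mRNA and is nearly silent in transcription until the embryo starts its own. During maturation some stored mRNAs gain poly(A) and move onto polysomes while others lose their tails and are degraded. The CCR4-NOT complex removes poly(A) tails, and CNOT6L is one of its catalytic subunits. Adaptor proteins such as BTG4 and the zinc finger protein ZFP36L2 bring the complex to its targets. The series asks how loss of CNOT6L changes the set of maternal transcripts found on polysomes as meiosis proceeds.

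The targeted gene was lower in KO at MI. Cnot6l (chromosome 5, 96505816 to 96591009, minus strand, mouse build 9) had 68.5 and 47.9 FPKM in WT at MI, against 23.5 and 16.5 in KO. The groups did not overlap, and reads over the gene remained in both KO libraries. The difference KO minus WT on the log2(FPKM + 1) scale was -1.49 (SE 0.57, limma adjusted p = 0.0726) as deposited and -2.42 (SE 0.574, limma adjusted p = 0.0429) after median scaling. The scaled call was lost without any 1 of 6 libraries, namely both WT MI, both KO MI and both KO MII libraries (limma adjusted p = 0.0731 to 0.279).

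Most transcripts were more abundant in KO than in WT at MI in the deposited values. limma called 3257 genes higher in KO (27.9% of those tested) and 54 lower (0.463%), at a Benjamini-Hochberg adjusted p below 0.05, and 8356 were not called. The median difference over all tested genes was 1.03 on the log2(FPKM + 1) scale, or 2.04-fold, and 89.5% of the differences were positive. Both KO libraries lay above both WT libraries for 8108 genes (69.5%) and below them for 365 (3.13%). The 4 libraries also differed as a whole. Their FPKM summed to 1040466 and 1063273 in WT and to 1635234 and 1663871 in KO. Of the tested genes 1848 and 1890 were listed at 0 in the WT MI libraries, against 377 and 351 in KO. A set of 171 genes was at 0 in both WT MI libraries and above 5 FPKM in both KO MI libraries, against 3 genes the other way round. These 3 were Dbil5, Rwdd3 and Ydjc, named after their values were seen. No spike-in or read count is among the values used here, so a change in the number of oocytes, in RNA per oocyte, in the polysome-bound share of an mRNA and in library yield cannot be told apart.

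Dividing each library by its median ratio to the mean library (median scaling, factors 0.754 and 0.7635 for WT MI and 1.472 and 1.495 for KO MI) centred the comparison. Then 250 genes were higher (2.14%) and 285 lower (2.44%) by limma, and the median difference was 0.21. With every library brought to one common sum (TPM) the split was 498 higher and 155 lower, with a median of 0.47. All 250 genes that were higher after median scaling were also higher as deposited. Of the 285 lower genes 46 were lower on both scales (0.394% of those tested), 58 were higher as deposited, and 181 were not called as deposited. These counts depended on single libraries. Without KO MI replicate 1 or 2 the deposited calls were 1271 or 1037 higher and 18 or 20 lower, and without WT MI replicate 2 the lower calls were 31. After median scaling the higher calls fell to 45 or 50 and the lower calls to 121 or 119 without KO MI replicate 1 or 2, and the lower calls to 181 without WT MI replicate 2. Without either WT MII library, the group whose replicates differed most, 487 genes were higher.

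**Figure D1:**
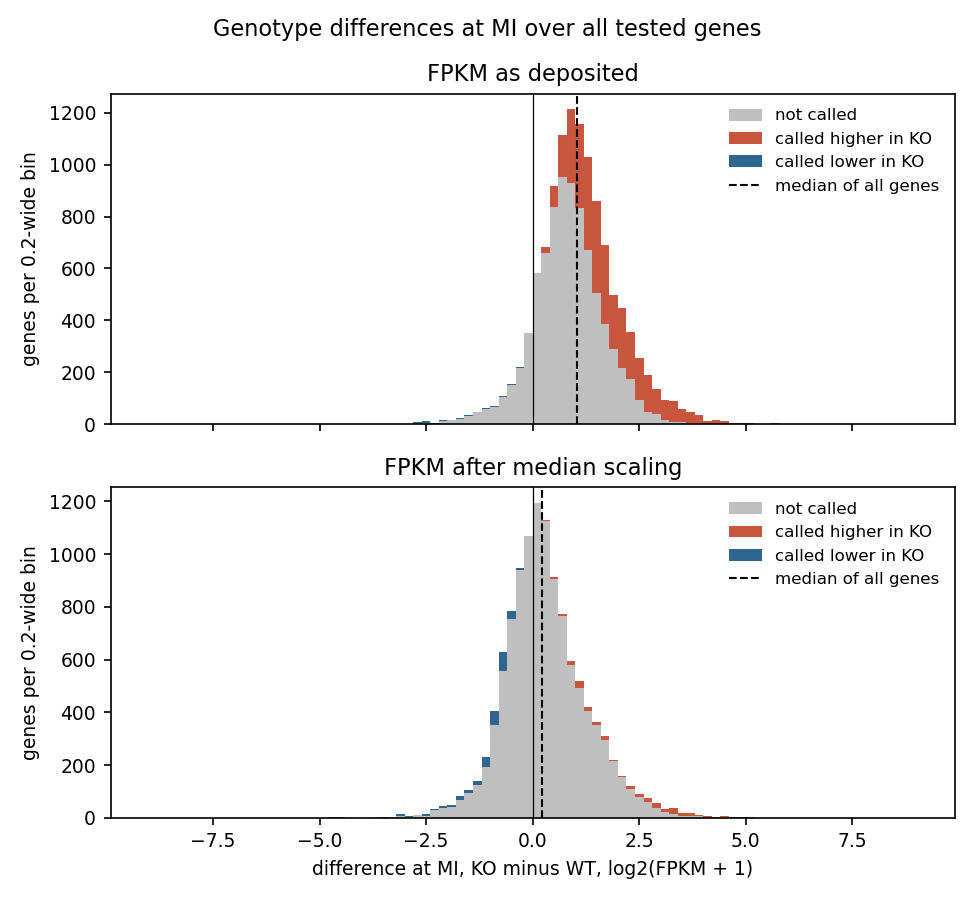
Histograms of the difference KO minus WT at MI on the log2(FPKM + 1) scale for 11667 genes, as deposited (top) and after median scaling (bottom), with called genes in colour and the median of all genes as a dashed line. The deposited distribution is centred at 1.03 and nearly all its called genes are higher in KO, while the scaled one is centred at 0.21 with 250 higher and 285 lower.

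The difference between genotypes varied with abundance. Among genes with a mean of 1 to 5 FPKM over the 12 libraries the deposited median difference was 0.94, it was 1.17 from 5 to 20 FPKM, and for the 163 genes at 1000 FPKM or more it was 0.47. After median scaling the medians ran from 0.44 in the lowest class to -0.50 in the highest. The share of genes that were lower after scaling accordingly rose from 0.221% in the lowest class to 56.4% in the highest. The 58 genes that were higher as deposited and lower after scaling included 47 of at least 1000 FPKM. A further pair of scalings levels out such a trend, namely quantile normalization and removal of each library's abundance trend with a loess curve. They gave 213 higher and 175 lower, and 201 higher and 191 lower. Of the 46 genes lower on both scales 45 were also lower under both of these, the exception being H1foo. Of the 250 higher genes 154 were also higher under both, and of the 285 lower genes 142 were lower under both.

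**Figure D2:**
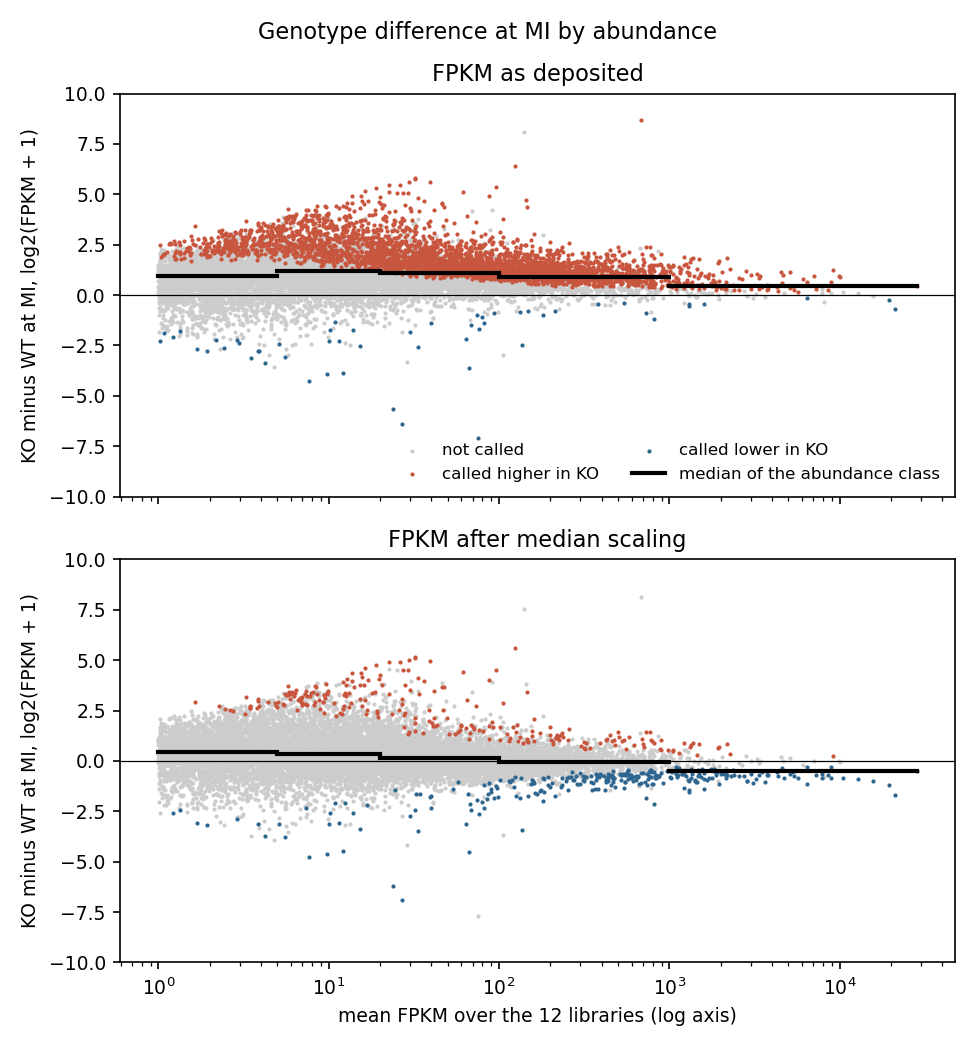
Difference KO minus WT at MI, log2(FPKM + 1), against mean FPKM over the 12 libraries (log axis), 1 point per gene, with the median of each of 5 abundance classes as black bars. The class medians are 0.94, 1.17, 1.08, 0.91 and 0.47 as deposited and fall from 0.44 to -0.50 after median scaling, and most genes called lower after scaling are abundant.

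The 12 largest increases among genes higher on both scales, predicted genes and clones left out, were transcripts listed at 0 or at a few FPKM in WT polysomes at MI and at 16.4 FPKM or more in KO. Slc35b2 (chromosome 17, 45701101 to 45704618), which encodes a Golgi transporter of the sulfate donor PAPS, was at 0.39 and 0 FPKM in WT MI and at 69.1 and 47.1 in KO MI. Its GV values were 35.1 and 45.1 in WT and 40.1 and 74.0 in KO. The difference at MI was 5.62 (SE 0.468, limma adjusted p = 3.9e-05) as deposited and 5.00 (SE 0.49, limma adjusted p = 3.0e-04) after median scaling. Lypd3 (chromosome 7, 25421589 to 25426137), a surface protein of the Ly6 family, was at 2.06 and 3.81 FPKM in WT MI and at 166.0 and 153 in KO MI. Its difference was 5.38 (SE 0.33, limma adjusted p = 6.9e-06) and 4.52 after scaling (SE 0.34, limma adjusted p = 5.4e-05). Both WT MI libraries lay far below all 4 GV libraries, in which Lypd3 was at 147.5 to 225.3 FPKM.

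Other genes of this group were listed at 0 in WT MI. Extl1, a glycosyltransferase gene of the exostosin family, was listed at 0 in both WT MI libraries and at 33.8 and 44.3 FPKM in KO MI. Rnpep, which encodes aminopeptidase B, was listed at 0 in both WT MI libraries and at 27.6 and 39.1 in KO MI, against 42.3 to 50.2 in the 4 GV libraries. Atpbd4, a gene of diphthamide synthesis, was at 2.91 and 4.39 in WT MI and 130.5 and 141.7 in KO MI, and its WT MII libraries were at 3.65 and 0.39 against 168.0 and 188.0 in KO MII. These 5 genes kept both calls without any 1 of the 12 libraries, whereas after scaling Slc35b2, Extl1 and Rnpep were not called in a fit of the 4 MI libraries alone (limma adjusted p = 0.0609, 0.0507 and 0.0581, the highest of their alternatives). The other 7 of the 12 were the kinase gene Stk36, the endoplasmic reticulum gene Ei24, the GPI anchor gene Pgap2, the topoisomerase gene Top3a, the transcription factor gene Junb, the ADP-ribose hydrolase gene Adprhl2, and Fam57a. They were at 0 to 4.27 FPKM in WT MI and at 16.4 to 90.3 in KO MI. All 7 kept their deposited call without any 1 library, but after scaling each lost it without at least 1 library, KO MI replicate 1 or 2 in every case and 8 further libraries for Junb (limma adjusted p = 0.0512 to 0.216), and with the 4 MI libraries alone (0.0613 to 0.137).

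The 250 genes that were higher on both scales had median levels in WT of 44.9 FPKM at GV, 3.53 at MI and 7.89 at MII. The KO medians at these stages were 56.5, 57.0 and 33.1. The WT MI mean was below the WT GV mean for 246 of the 250 and for 9064 of all 11667 tested genes. The KO MI mean was below the KO GV mean for 98 of the 250, against 4555 of all tested genes. These levels describe genes that were chosen for their difference at MI. The calls at GV and MII use other libraries but the same spread per gene, fitted over all 12 libraries. They are therefore not independent of this choice. The 250 were also more abundant, with a median of the mean FPKM of 33 against 15 over all tested genes. At GV 1 of the 250 was called higher and 8 lower as deposited (all tested genes: 0.163% higher, 1.4% lower). At MII 189 of them were called higher (75.6%, against 25.4% of all tested genes) and 2 lower (0.8%, against 3.2%), with a median difference of 2.19 against 0.81 over all genes. After median scaling 162 were higher at MII (64.8%, against 16% of all) and 6 lower (2.4%, against 8.31%).

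**Figure D3:**
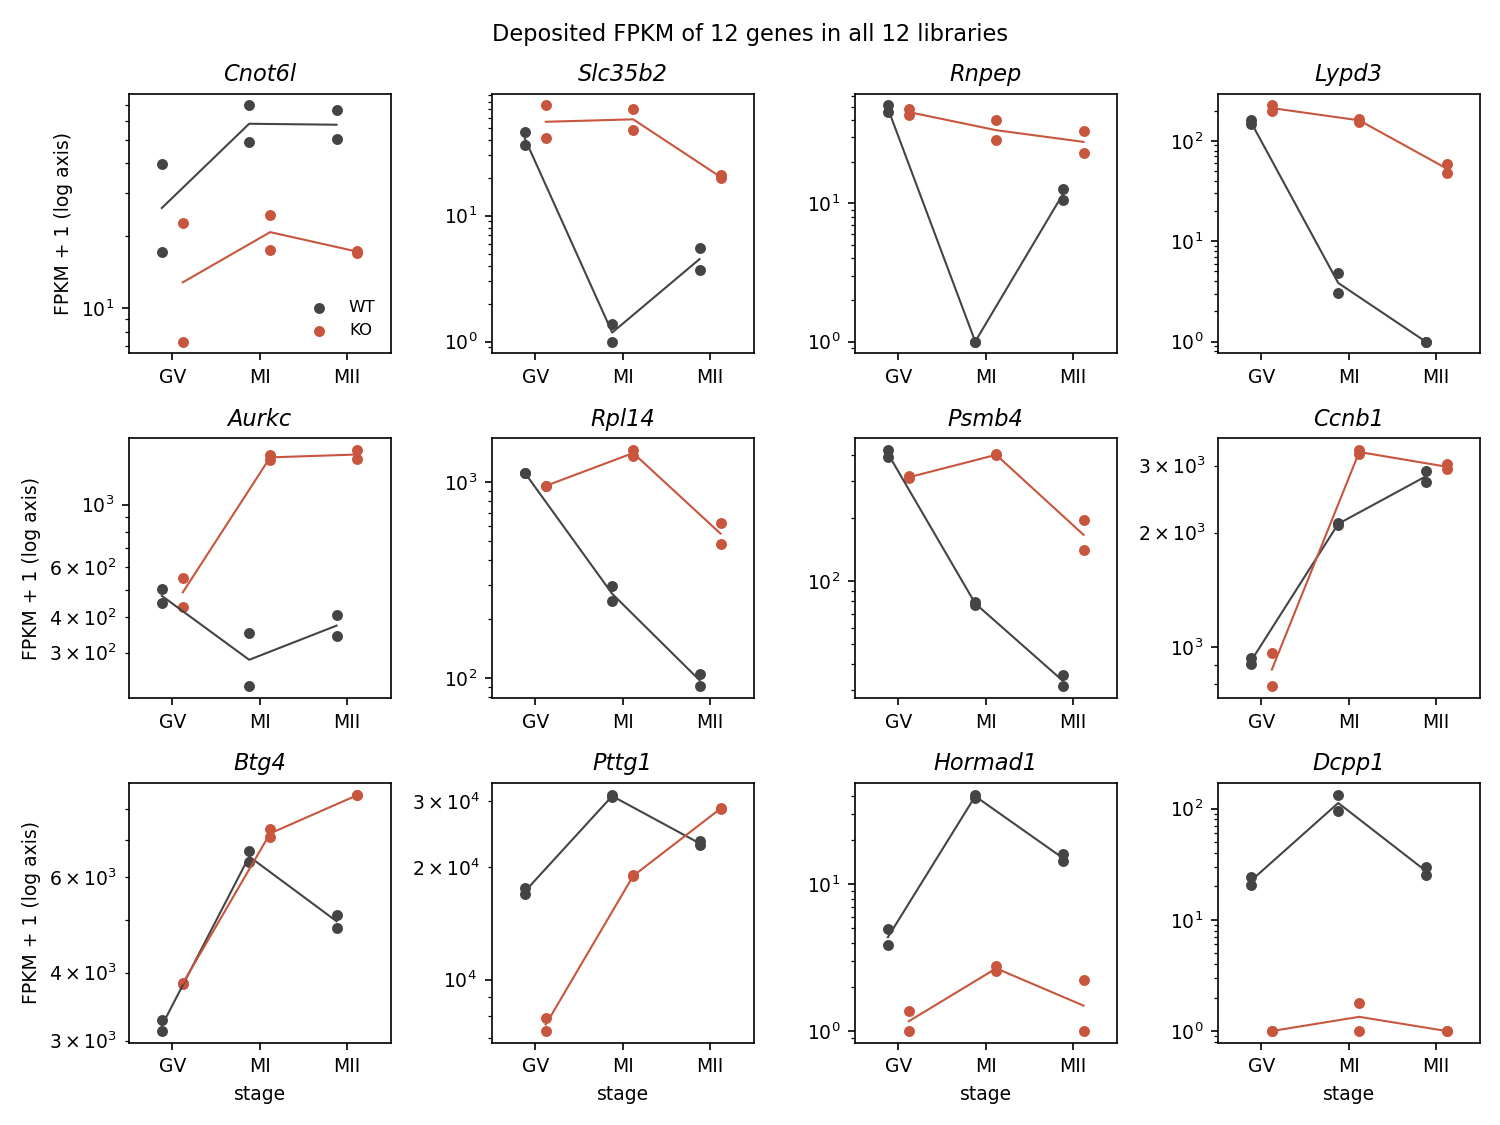
Deposited FPKM + 1 (log axis) of 12 genes by stage, 1 point per library, lines through the mean of the log values, WT in grey and KO in red. Slc35b2, Rnpep and Lypd3 lie below 4 FPKM in WT MI and between 27.6 and 166.0 in KO MI, Ccnb1 and Btg4 lie higher at MI than at GV in both genotypes, and Dcpp1 lies at 0 or below 1 FPKM in every KO library.

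Fewer transcripts were lower in KO on both scales, and several of these were low in KO at other stages too. Dcpp1 (chromosome 17, 24017843 to 24019820) and its neighbour Dcpp2 (24035689 to 24037754) encode secreted proteins of a salivary gland family with near-identical copies, so reads may be split among them. Dcpp1 was at 93.7 and 132.1 FPKM in WT MI and at 0.8 and 0 in KO MI, a difference of -6.39 (SE 0.516, limma adjusted p = 3.5e-05) and -6.89 after scaling (SE 0.501, limma adjusted p = 4.2e-05). It was listed at 0 in all KO GV and KO MII libraries. Dcpp2 was at 65.2 and 100.7 in WT MI against 1.61 and 0 in KO MI. H2-Aa, an MHC class II chain, also on chromosome 17, was at 241.0 and 338.4 in WT MI and 54.4 and 45.3 in KO MI (-2.50 and -3.45 after scaling, limma adjusted p = 0.00125 and 5.0e-04). It was lower in KO by a like amount at GV (-2.64, limma adjusted p = 0.0044) and at MII (-2.93, limma adjusted p = 2.3e-04). Dcpp1, Dcpp2 and H2-Aa were thus called lower in KO at all 3 stages as deposited.

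Others of the 12 largest decreases were transcripts whose WT level was higher at MI than at GV. This also held for Dcpp1, Dcpp2 and H2-Aa. Hormad1, Bcat2, Agbl2 and Rrs1 were also called lower in KO at MII as deposited (-3.35, -4.80, -4.29 and -3.22). Their limma adjusted p values there were 0.00161, 3.4e-05, 4.1e-04 and 4.9e-04, and none of these genes was called at GV. Hormad1 (chromosome 3, 95363599 to 95391593), which encodes a protein of the meiotic chromosome axis, was at 39.8 and 37.9 FPKM in WT MI and at 1.57 and 1.78 in KO MI. The difference was -3.90 (SE 0.569, limma adjusted p = 0.00123) and -4.62 after scaling (SE 0.572, limma adjusted p = 0.0014). Its GV values were 2.85 and 3.93 in WT and 0 and 0.36 in KO. Bcat2, the mitochondrial branched-chain aminotransferase, was at 176.8 and 154.5 in WT MI and at 13.45 and 11.7 in KO MI (-3.62 and -4.53 after scaling, limma adjusted p = 5.3e-04 and 3.4e-04). At GV it was at 65.1 and 47.1 in WT and 49.9 and 33.6 in KO. The genotype difference at MI differed from that at GV on both scales (interaction -4.20 after scaling, limma adjusted p = 0.00975). This term contains the MI difference by which Bcat2 was chosen, so its p-value is not independent of that choice.

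Agbl2, a carboxypeptidase gene that acts on tubulin, followed the same course (21.2 and 31.2 FPKM in WT MI, 0.21 and 0.61 in KO MI, 0 to 1.10 in the 4 GV libraries). The ribosome biogenesis gene Rrs1 was at 79.1 and 54.7 FPKM in WT MI and 12.4 and 8.57 in KO MI. These 7 genes kept both calls without any 1 library, but Agbl2 and Rrs1 were not called after scaling in a fit of the 4 MI libraries alone (limma adjusted p = 0.0586 and 0.055, the highest of their alternatives). The fatty acid synthase gene Fasn, Rwdd3, Wbscr16 and the cumulus matrix gene Ptx3, also among the 12, lost their calls without at least 2 libraries each, among them KO MI replicate 2 in every case (limma adjusted p = 0.0535 to 0.153 as deposited and 0.0515 to 0.176 after scaling). They were at 4.43 to 40.2 FPKM in WT MI and 0 to 11.2 in KO MI.

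The 46 genes lower on both scales had median levels in WT of 38.9 FPKM at GV, 77.7 at MI and 66.9 at MII, and in KO of 20.0, 19.6 and 11.9. The median of their mean FPKM over the 12 libraries was 52.1, against 15 over all tested genes. Their calls at the other stages share the spread per gene fitted over all 12 libraries, so they are not independent of the choice at MI. At MII 22 of the 46 were called lower as deposited (47.8%, against 3.2% of all tested genes) and 6 higher (13%, against 25.4%). At GV 12 were called lower (26.1%, against 1.4%) and 2 higher (4.35%, against 0.163%). Without KO MI replicate 1 or 2, or WT MI replicate 2, 16, 17 or 26 genes were lower on both scales, and in a fit of the 4 MI libraries alone 29.

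Among the most abundant transcripts of the oocyte, Pttg1 was lower in KO on both scales. It encodes securin, the inhibitor of separase whose destruction starts anaphase. Pttg1 (chromosome 11, 43233750 to 43239483) was at 30652 and 31147 FPKM in WT MI and at 18960 and 18864 in KO MI. The difference was -0.71 (SE 0.036, limma adjusted p = 2.1e-06) and -1.68 after scaling (SE 0.035, limma adjusted p = 4.8e-09). As deposited, it was lower in KO at GV by 1.18 on the log2 scale (limma adjusted p = 5.3e-08). At MII it was higher in KO by 0.31 as deposited (limma adjusted p = 1.4e-04), below the median of all tested genes there, 0.81. After scaling the MI difference of -1.68 less that at MII was -1.38, so Pttg1 was lower in KO at MII on that scale. Cks2, which encodes a subunit of cyclin-dependent kinases, was at 2570 and 2645 in WT MI and 1861 and 2024 in KO MI (-0.43, limma adjusted p = 0.0044; -1.39 after scaling, limma adjusted p = 5.0e-06). The respiratory chain gene Ndufa4 was at 1706 and 1964 in WT MI and 1294 and 1187 in KO MI (-0.56, limma adjusted p = 0.00257). The axis gene Sycp3 was at 236.9 and 258.7 in WT MI and 140.5 and 131.3 in KO MI (-0.86, limma adjusted p = 0.0203), but its deposited call was lost without any 1 MI library (limma adjusted p = 0.0534 to 0.114).

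H1foo, the linker histone of the oocyte, and Tcl1, a coactivator of the kinase Akt, were lower in KO by small amounts as deposited. H1foo was at 26725 and 27085 FPKM in WT MI and 22455 and 22870 in KO MI (-0.25, limma adjusted p = 0.00353; -1.21 after scaling, limma adjusted p = 4.2e-07; 0.15 under quantile normalization, limma adjusted p = 0.0896, the highest of its scaled alternatives). Tcl1 was at 7544 and 7660 in WT MI and 6713 and 6819 in KO MI (-0.17, limma adjusted p = 0.0116; -1.14 after scaling, limma adjusted p = 4.2e-07), and its deposited call was lost without KO MI replicate 1 or 2 (limma adjusted p = 0.0804 and 0.0605). Both were higher in KO than in WT at MII as deposited (0.71 and 1.15, limma adjusted p = 1.8e-06 and 1.9e-08), where the median of all tested genes was 0.81. After scaling H1foo was not called at MII (0.10, limma adjusted p = 0.131), and Tcl1 was higher in KO (0.55, limma adjusted p = 1.3e-05).

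Genes of the deadenylation machinery were called higher in KO as deposited about as often as all tested genes (27.9%) or, for the non-catalytic subunits, more often. Of 12 catalytic deadenylase genes 3 were higher, 0 lower and 9 not called as deposited, and 0 were higher and 1, Cnot6l itself, was lower after scaling. The median difference of the list was 0.80 and -0.16 on these scales. Cnot7, the catalytic subunit that pairs with CNOT6L in the complex, was at 354.5 and 381.4 FPKM in WT MI and 518.2 and 560.3 in KO MI (0.55, SE 0.144, limma adjusted p = 0.0197; -0.41 after scaling, limma adjusted p = 0.132). Leaving out WT MI replicate 1 or either KO MI library ended the deposited call (limma adjusted p = 0.0708 to 0.124). Its paralog Cnot8 was at 421.0 and 522.7 in WT MI and 625.9 and 675.5 in KO MI (0.47, limma adjusted p = 0.0515; -0.50 after scaling, limma adjusted p = 0.11). Cnot6, the paralog of Cnot6l, was at 1.91 and 0 in WT MI and 5.46 and 2.14 in KO MI, and was not called on either scale (1.40 and 0.85, limma adjusted p = 0.387 and 0.809).

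Of 7 non-catalytic CCR4-NOT subunits 4 were higher as deposited and 0 were called after scaling, with medians of 1.20 and 0.25. Cnot2 was at 40.5 and 39.1 FPKM in WT MI and 91.8 and 93.9 in KO MI (1.20, limma adjusted p = 0.00747; 0.25 after scaling, limma adjusted p = 0.666), and its deposited call was lost without KO MI replicate 1 or 2 (limma adjusted p = 0.0501 and 0.059). The adaptor gene Btg4 was at 6379 and 6704 in WT MI and 7094 and 7333 in KO MI. It was called higher as deposited (0.14, SE 0.045, limma adjusted p = 0.0415) and lower after scaling (-0.83, SE 0.041, limma adjusted p = 2.8e-06), and TPM, quantile normalization and trend removal also gave lower values (-0.51, -0.33 and -0.28). Its deposited call was lost without WT GV replicate 1, WT MI replicate 1 or any 1 KO library (limma adjusted p = 0.0502 to 0.211). Of 17 adaptors and AU-rich element binders 5 were higher and 0 lower as deposited, and 0 higher and 1 lower, Btg4, after scaling.

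Transcripts that carry a cytoplasmic polyadenylation element were examined next, since such mRNAs are known to gain poly(A) and be translated during maturation. The element is a uridine-rich stretch near the end of the 3′ UTR bound by CPEB1. The sites of 6 transcripts described here are printed so that the element can be seen in its context, each as DNA letters 5′ to 3′ on the transcript strand, with the element in capitals. They come from the annotation of GENCODE mouse release 1 on the genome of mouse build NCBIM37 and lie in the 3′ UTR.
Ccnb1, chr13:101548731-101548758, minus strand: tcatttgctgTTTTAATttatacatctg
Btg4, chr9:50927746-50927773, plus strand: ttaagtcttgTTTTAATcattgttttaa
Cnot7, chr8:41578393-41578420, minus strand: cttaaggtacaTTTTATatcaataaaaa
Gdf9, chr11:53251357-53251384, plus strand: gagtgctgtggTTTTATgtgacggaaga
Cks2, chr13:51745968-51745995, plus strand: ataaatgcctgTTTTATtttacctgttt
Tcl1, chr12:106455008-106455035, minus strand: aatgtgtgggaTTTTATgtggttctatt
The element starts or ends within the last 100 bases of each transcript, 14 to 55 bases before its end. A search of the transcript strand for TTTTAT or TTTTAAT in the last 100 bases found a match in 2059 of 10224 tested genes with a 3′ UTR of at least 100 bases (20.1%). A match shows only that these letters are present.

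Genes with the element had a lower median difference than genes without it. The deposited median difference was 0.89 for the 2059 genes with it and 1.05 for the 8165 without. After median scaling the medians were 0.04 and 0.23, and after trend removal -0.15 and 0.00. After scaling 3.93% of the genes with the element were lower, against 2.11% of the others, while 1.94% and 1.79% were higher. The median with the element was below that without it in each of 5 abundance classes and in each of 4 classes of 3′ UTR length, on both scales. In the class of 100 to 1000 FPKM, for example, the deposited medians were 0.74 and 0.94. Seen from the called genes, 32% of those lower after scaling with a usable 3′ UTR had the element (81 of 253), against 21.5% of those higher (40 of 186). Among genes lower on both scales the share was 25% (10 of 40). Abundant genes had the element more often. At 1000 FPKM or more 39 genes had it and 90 did not, against 466 and 2198 at 1 to 5 FPKM. Most genes lower after scaling were abundant, and these shares of called genes were not adjusted for abundance. Genes are not independent replicates, and no test was run on these shares.

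**Figure D4:**
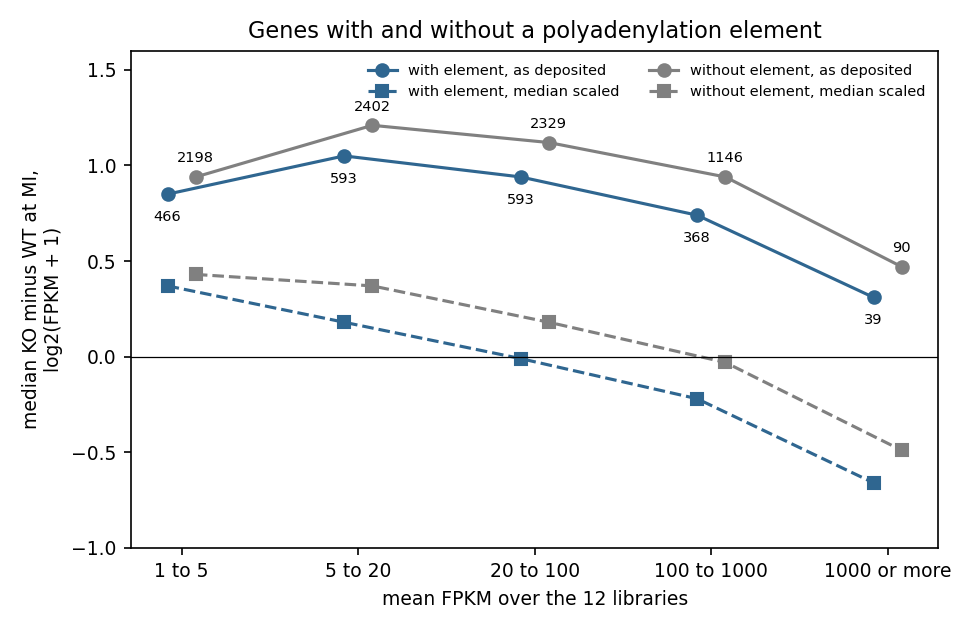
Median difference KO minus WT at MI, log2(FPKM + 1), of genes with (blue) and without (grey) TTTTAT or TTTTAAT in the last 100 transcript bases, by mean FPKM, as deposited (solid) and median scaled (dashed), with the number of genes beside each solid point. In the class of 100 to 1000 FPKM the deposited medians are 0.74 and 0.94, and the blue point lies below the grey one in all 5 classes.

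A destabilizing sequence and a repressor site were searched in the same way. The AU-rich element core TATTTAT, which can share bases with the polyadenylation element, was found in the 3′ UTR of 2684 genes (26.3%). The deposited median was 0.98 with it and 1.03 without, and 2.01% and 2.64% were lower after scaling. The Pumilio site, searched as the letters TGTA, any base, then ATA, was in the last 100 bases of 528 genes (5.16%), with a deposited median of 1.02 with it and 1.02 without it.

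A list of 24 maturation transcripts known for a polyadenylation element had a lower median difference than all genes as deposited. Of these 15 were higher (27.9% of all tested genes, and 62.6% of those at 100 to 1000 FPKM), 0 lower and 9 not called, with a median of 0.54 against 1.03 for all genes. After scaling 0 were higher and 9 lower, with a median of -0.43 against 0.21. The shares after scaling were 2.14% higher and 2.44% lower over all tested genes, and 4.08% and 8.05% at 100 to 1000 FPKM. The list is abundant, with a median of 438 FPKM, and after trend removal 2 were higher and 4 lower with a median of -0.21 against -0.02. Over all 11667 tested genes trend removal gave 201 higher and 191 lower. The targeted gene Cnot6l is itself on this list and is among both the 9 and the 4 lower genes. The cyclin gene Ccnb1 was at 2096 and 2122 FPKM in WT MI and 3218 and 3295 in KO MI, so that its KO libraries lay above both WT libraries (0.63, SE 0.089, limma adjusted p = 0.00105). After scaling it was not called (-0.34, limma adjusted p = 0.0552), and it was at 0.05 and 0.19 after trend removal and quantile normalization. The scaled value was called under 6 of its alternatives, of which 4 leave out a KO GV or a WT MII library, and its limma adjusted p ran from 0.0115 to 0.824. Mos, the kinase that holds MAP kinase active in meiosis, was at 2219 and 2281 in WT MI and 2391 and 2413 in KO MI (0.09, limma adjusted p = 0.362; -0.87 after scaling, limma adjusted p = 1.7e-04). At GV, over the 4 libraries of both genotypes, Ccnb1 and Mos were at 789.6 to 966.6 and 831.3 to 907.8 FPKM.

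Oocyte-specific factors also had a lower median than all genes. As deposited 27.9% of all tested genes were higher and 0.463% lower. The share higher was 62.6% at 100 to 1000 FPKM and 70.6% at 1000 FPKM or more. Of 43 tested 19 were higher and 2 lower as deposited, the 2 being H1foo and Tcl1, and 22 were not called. After scaling 1 was higher and 20 lower. The share lower after scaling was 2.44% of all tested genes, 8.05% at 100 to 1000 FPKM and 56.4% at 1000 FPKM or more. The list's medians were 0.47 and -0.40, and its median abundance was 998 FPKM. After trend removal 2 were higher and 12 lower, with a median of -0.21, against 201 higher and 191 lower of all 11667 tested genes. The growth factor gene Gdf9 was at 10680 and 11484 FPKM in WT MI and 11525 and 12240 in KO MI (0.10, limma adjusted p = 0.194; -0.87 after scaling, limma adjusted p = 9.1e-06), and it was also lower after quantile normalization and trend removal (-0.51 and -0.27). Its partner Bmp15 was at 2205 and 2105 in WT MI and 2875 and 3114 in KO MI (0.47, limma adjusted p = 0.00122; -0.49 after scaling, limma adjusted p = 0.00241, and 0.0664 with the 4 MI libraries alone), and it was not called under the other 2 scalings (0.04 and -0.12). Dppa3, a protein that protects the maternal genome from demethylation, was nearly equal as deposited, at 18125 and 19234 in WT MI and 17924 and 18745 in KO MI (-0.03, limma adjusted p = 0.666; -0.99 after scaling, limma adjusted p = 2.8e-06). Zbed3, of the subcortical maternal complex, was at 8332 and 8175 in WT MI and 8746 and 8891 in KO MI (0.10 and -0.87). Tcl1b1, a relative of Tcl1, and the RING finger gene Rfpl4 were lower after scaling only (-1.16 and -1.10, limma adjusted p = 1.0e-04 and 4.9e-04).

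Transcripts listed under the zona pellucida and the subcortical maternal complex were nearly all higher in KO as deposited, as were 70.6% of all genes at 1000 FPKM or more. Of 13 genes on this list 12 were higher and 0 lower as deposited, with a median of 0.94. Among the 12 were Zp3r, Khdc1a and Astl, and a place on the list does not show that a protein belongs to either structure. After scaling 1 was higher and 2 lower, against 8.59% and 56.4% of all genes at 1000 FPKM or more. The list's median abundance was 1905 FPKM. With the abundance trend removed 6 were higher and 1 lower, with a median of 0.54 against -0.02 for all genes. Over all 11667 tested genes trend removal gave 201 higher and 191 lower. Zp3, a glycoprotein of the zona, was at 9431 and 9977 FPKM in WT MI and 17976 and 18339 in KO MI (0.90, SE 0.036, limma adjusted p = 1.6e-06; -0.06 after scaling, limma adjusted p = 0.403; 0.56 after trend removal, limma adjusted p = 2.1e-05). Padi6, an enzyme-like protein of the cytoplasmic lattices, was at 10193 and 10403 in WT MI and 19684 and 20275 in KO MI (0.96, SE 0.045, limma adjusted p = 1.6e-06; -0.01 after scaling, limma adjusted p = 0.947; 0.60 after trend removal, limma adjusted p = 4.3e-05).

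**Figure D5:**
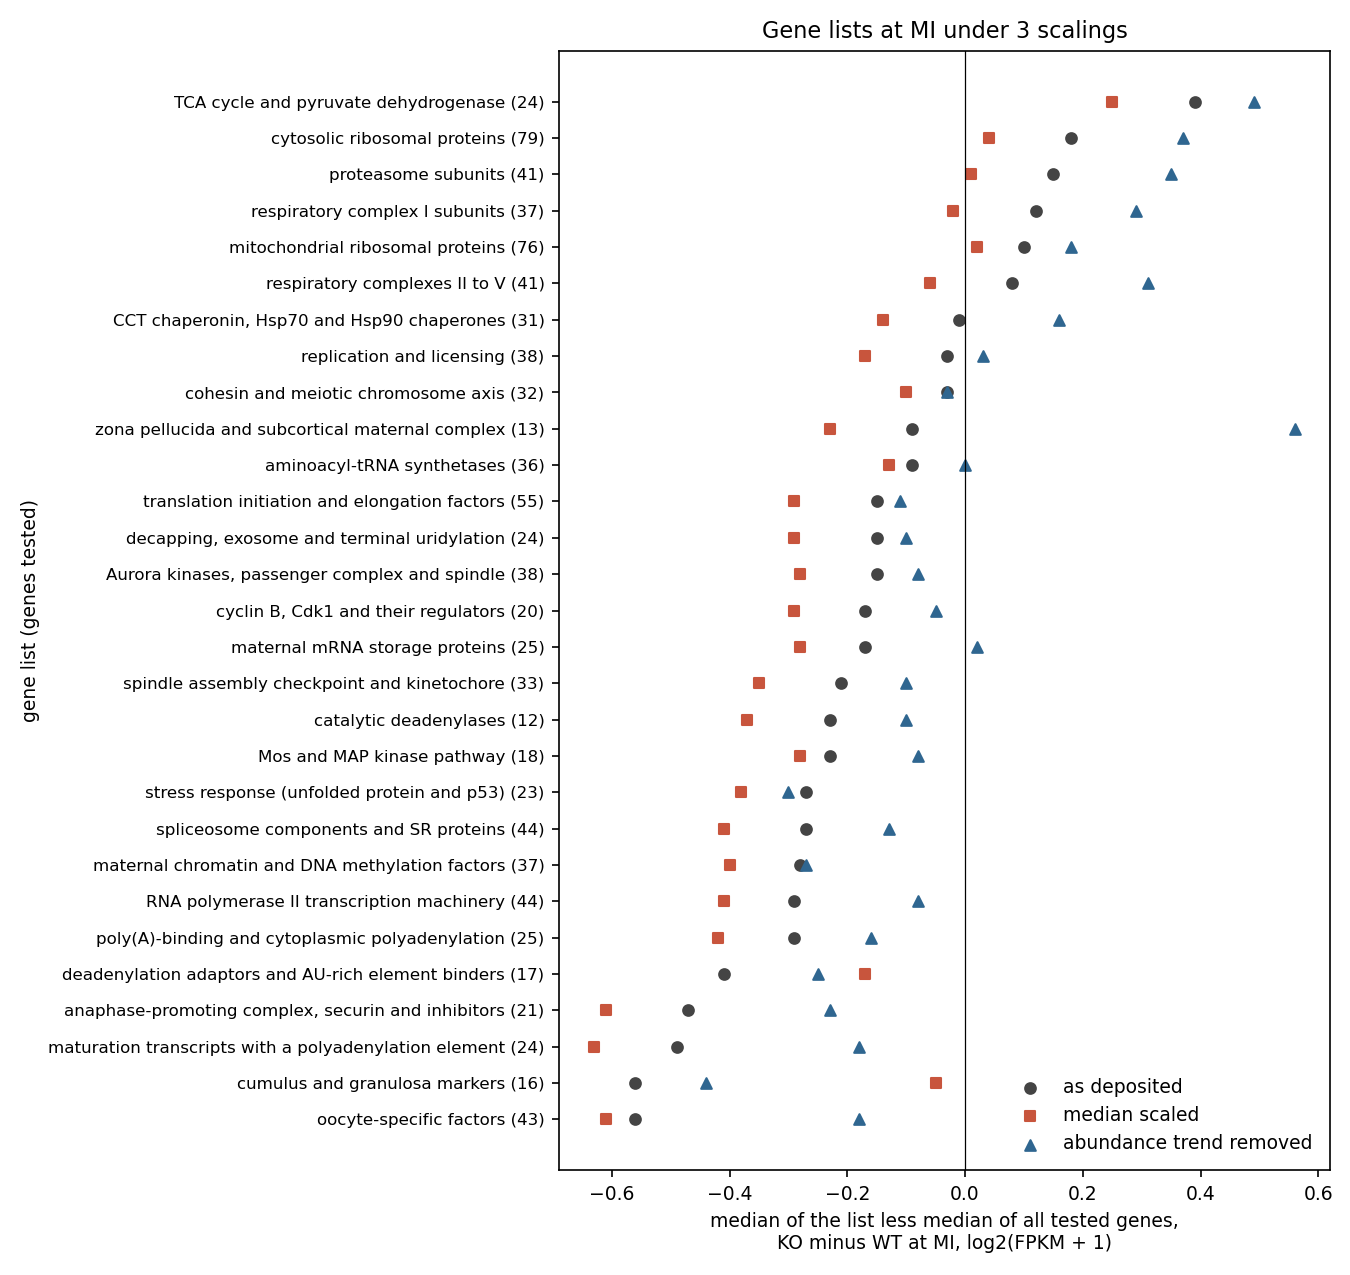
Median difference of each gene list less the median of all tested genes, KO minus WT at MI on the log2(FPKM + 1) scale, as deposited, after median scaling and after removal of the abundance trend, with the number of tested genes in brackets. Oocyte-specific factors and maturation transcripts lie below 0 under all 3 scalings, and cytosolic ribosomal proteins lie above 0. Other lists also lie below 0 under all 3, such as that of the anaphase-promoting complex (-0.47, -0.61 and -0.23).

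Ribosomal and proteasome transcripts were often called higher in KO as deposited, while most of them were not called after scaling. For comparison, 27.9% of all tested genes were higher as deposited, and 62.6% of those at 100 to 1000 FPKM, the class in which the medians of the cytosolic ribosomal protein (378 FPKM) and proteasome (201 FPKM) lists fall. Of 79 cytosolic ribosomal protein genes 62 were higher, 0 lower and 17 not called as deposited. Both KO libraries lay above both WT libraries for 77 of them, and for 69.5% of all tested genes. The median was 1.21 against 1.03 for all genes. After scaling 12 were higher and 5 lower with a median of 0.25 against 0.21, and after trend removal 16 were higher and 2 lower with a median of 0.35. At 100 to 1000 FPKM 4.08% of all genes were higher and 8.05% lower after scaling. Over all 11667 tested genes trend removal gave 201 higher and 191 lower. Rpl14 was at 293.3 and 246.1 FPKM in WT MI and 1362 and 1461 in KO MI (2.39, SE 0.144, limma adjusted p = 6.6e-06; 1.42 after scaling, SE 0.14, limma adjusted p = 3.1e-04). Rps19 was at 210.5 and 196.9 in WT MI and 884.5 and 962.2 in KO MI (2.17, limma adjusted p = 6.6e-06; 1.21 after scaling, limma adjusted p = 4.1e-04). At GV both genes were lower in both KO libraries than in both WT libraries but not called as deposited, Rpl14 at 1119 and 1114 in WT against 955.1 and 961.1 in KO, and Rps19 at 731.0 and 748.8 against 527.7 and 579.6 (-0.22 and -0.42, limma adjusted p = 0.708 and 0.211). Rps28, of the same list, was at 724.2 and 1128 in WT MI and 792.3 and 815.6 in KO MI with overlapping groups (-0.17, limma adjusted p = 0.529; -1.13 after scaling, limma adjusted p = 0.0106). Leaving out WT MI replicate 2 or either KO MI library ended its scaled call (limma adjusted p = 0.0515 to 0.0971).

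Of 41 proteasome subunit genes 29 were higher and 0 lower as deposited (median 1.18), and 3 were higher and 1 lower after scaling (median 0.22). Of all tested genes 27.9% were higher as deposited. In the class of 100 to 1000 FPKM 62.6% were higher as deposited, and 4.08% were higher and 8.05% lower after scaling. Psmb4, a subunit of the catalytic core, was at 76.2 and 78.1 FPKM in WT MI and 398.0 and 403.9 in KO MI (2.36, limma adjusted p = 3.5e-05; 1.40 after scaling, limma adjusted p = 0.00203). The core subunit Psmb5 was at 267.8 and 207.7 in WT MI and 1064 and 1015 in KO MI (2.13, limma adjusted p = 1.6e-05; 1.17 after scaling, limma adjusted p = 0.00154, and 0.0664 with the 4 MI libraries alone). Of 76 mitochondrial ribosomal protein genes 36 were higher, 0 lower and 40 not called as deposited, and 2 and 0 after scaling. Mrps10 was listed at 0 in both WT MI libraries and at 21.5 and 16.6 in KO MI (limma adjusted p = 0.00242 after scaling, and 0.0651 with the 4 MI libraries alone). Of 55 translation initiation and elongation factors 30 were higher and 0 lower as deposited, and 1 and 4 after scaling, with medians of 0.87 and -0.08 that lay below those of all genes (1.03 and 0.21).

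Nuclear genes of the respiratory chain are abundant, with list medians of 252 FPKM for complex I and 437 for complexes II to V. As deposited 27.9% of all tested genes were higher, and 62.6% of those at 100 to 1000 FPKM. After scaling 4.08% of the genes at 100 to 1000 FPKM were higher and 8.05% lower. Of 37 genes listed under complex I 23 were higher and 1, Ndufa4, was lower as deposited, and 1 and 3 after scaling. Ndufa4 is on this list by its name, which does not show that its protein belongs to complex I. Of 41 subunits of complexes II to V 31 were higher and 0 lower as deposited, and 5 and 5 after scaling. Cox5b was at 382.0 and 291.5 FPKM in WT MI and 1315 and 1338 in KO MI (1.99, limma adjusted p = 2.8e-05; 1.02 after scaling, limma adjusted p = 0.00367, and 0.0691 with the 4 MI libraries alone), whereas Cox6c was at 1921 and 1907 in WT MI and 1742 and 1845 in KO MI (-0.10, limma adjusted p = 0.472; -1.06 after scaling, limma adjusted p = 1.2e-04). Both encode subunits of cytochrome c oxidase. Of 24 genes of the TCA cycle and pyruvate dehydrogenase 12 were higher as deposited. This list had a median abundance of 58.9 FPKM, and 34.6% of all genes at 20 to 100 FPKM were higher as deposited. Its deposited median, 1.42, was the highest among lists of 10 or more genes, and 0 were called after scaling (median 0.46).

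Of 25 maternal RNA storage protein genes 12 were higher, 0 lower and 13 not called as deposited (all tested genes: 27.9% higher), and 1 and 0 after scaling. The list had a median abundance of 104 FPKM, and 62.6% of all genes at 100 to 1000 FPKM were higher as deposited. Its median difference of 0.86 as deposited lay below the 1.03 of all genes. Zar1l, a relative of the oocyte RNA-binding protein ZAR1, was at 72.1 and 98.1 FPKM in WT MI and 286.4 and 263.9 in KO MI (1.70, limma adjusted p = 0.00543; 0.74 after scaling, limma adjusted p = 0.273). Igf2bp2, which binds and stabilizes mRNA, was at 55.4 and 64.4 in WT MI and 197.3 and 185.9 in KO MI (1.67, limma adjusted p = 0.00152). Patl2, an oocyte relative of a decapping activator, was at 59.8 and 48.1 in WT MI and 177.8 and 157.9 in KO MI (1.62, limma adjusted p = 0.00159). After scaling neither Igf2bp2 nor Patl2 was called (0.71 and 0.67, limma adjusted p = 0.161 and 0.176). At GV the 3 genes did not pass the test. Of 24 decapping, exosome and terminal uridylation genes 10 were higher as deposited, with a median of 0.88, and 0 were called after scaling.

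Among cell cycle genes the kinase gene Aurkc rose on both scales in KO. Aurora kinase C, the meiotic member of its family, was at 226.9 and 349.8 FPKM in WT MI and at 1501 and 1433 in KO MI. At GV all 4 libraries lay between 434.9 and 548.5. The difference at MI was 2.38 (SE 0.192, limma adjusted p = 3.5e-05) and 1.41 after scaling (SE 0.193, limma adjusted p = 0.00241), with 0.072 in a fit of the 4 MI libraries alone as the highest of its scaled alternatives. Cdk1, the kinase partner of cyclin B, was at 54.0 and 49.3 in WT MI and 174.2 and 183.7 in KO MI (1.78, limma adjusted p = 0.00215; 0.82 after scaling, limma adjusted p = 0.158). Of 20 genes of cyclin B, Cdk1 and their regulators 8 were higher and 1, Cks2, was lower as deposited (all tested genes: 27.9% and 0.463%), and 0 were higher and 2 lower after scaling.

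In the anaphase-promoting complex list 6 of 21 were higher and 1, Pttg1, was lower as deposited, and 0 and 2 after scaling. Of 33 spindle checkpoint and kinetochore genes 9 were higher and 0 lower as deposited, and 0 and 5 after scaling. The checkpoint gene Mad2l1 was at 893.2 and 723.5 FPKM in WT MI and 888.8 and 894.5 in KO MI with overlapping groups (0.15, limma adjusted p = 0.34; -0.82 after scaling, limma adjusted p = 0.00356, and 0.071 with the 4 MI libraries alone; -0.60 after trend removal, limma adjusted p = 0.0199). Mapk3, one of the MAP kinases downstream of Mos, was at 841.9 and 941.9 in WT MI and 872.6 and 890.7 in KO MI (-0.01, limma adjusted p = 0.953; -0.98 after scaling, limma adjusted p = 0.00278; -0.76 after trend removal, limma adjusted p = 0.0147). Of 38 Aurora kinase, passenger complex and spindle genes 13 were higher and 0 lower as deposited, and 2 and 2 after scaling. Of 38 replication and licensing genes 19 and 0 were so called as deposited, and 0 and 3 after scaling. Of 32 cohesin and chromosome axis genes 10 were higher and 2, Hormad1 and Sycp3, were lower as deposited, and 1 was higher and 2 lower after scaling. The shares of all tested genes were 27.9% higher and 0.463% lower as deposited, and 2.14% and 2.44% after scaling.

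The genotype difference at MI was compared with that at GV and at MII by interaction terms. These contrasts share the MI libraries with the comparison above. Against GV, 1680 genes had a higher KO minus WT difference at MI (14.4%) and 31 a lower one (0.266%) as deposited, and 75 (0.643%) and 107 (0.917%) after median scaling. Against MII the counts were 433 (3.71%) and 328 (2.81%) as deposited and 202 (1.73%) and 527 (4.52%) after scaling. These sets depended on single libraries. Higher against GV as deposited were 849 or 772 genes without WT GV replicate 1 or 2, 1075 without KO GV replicate 1, 720 or 632 without KO MI replicate 1 or 2, and 2611 or 2601 without WT MII replicate 1 or 2. Higher against MII were 177 or 169 without KO MI replicate 1 or 2 and 227 or 219 without KO MII replicate 1 or 2, and lower against MII 147 or 161, and 184 or 177, without these libraries and 650 or 618 without WT MII replicate 1 or 2. After scaling the same comparisons ran from 29 to 183 and from 45 to 144 against GV, and from 64 to 325 and from 247 to 1062 against MII, each lowest without a KO MI library. Taken at GV itself, limma called 19 genes higher and 163 lower as deposited and 22 and 112 after scaling (0.189% and 0.96%).

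Single genes differed in how the genotypes compared across stages. Btg4 was near equal in the genotypes at MI as deposited but higher in KO at MII (8494 and 8474 FPKM, against 4836 and 5113 in WT). Dppa3 showed the same, with 30232 and 29355 in KO MII against 10317 and 9526 in WT MII, and its deposited difference over the 3 stages in order was -0.36, -0.03 and 1.59 (limma adjusted p = 0.00269, 0.666 and 5.6e-09). Padi6 was lower in KO at GV as deposited (-0.36, limma adjusted p = 0.00213) and higher at MI and at MII (0.96 and 2.48), with -0.01 at MI after scaling. Zbed3 was the reverse at MII, where KO was lower (-0.94, limma adjusted p = 1.4e-07).

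Genes of other classes were described by counts alone, to be read against 27.9% higher and 0.463% lower among all tested genes. The share higher as deposited rose with abundance. It was 9.02% at 1 to 5 FPKM, 34.6% at 20 to 100, 62.6% at 100 to 1000 and 70.6% at 1000 or more. The chaperone and RNA polymerase II lists had median abundances of 175 and 100 FPKM. As deposited, of 25 poly(A)-binding and cytoplasmic polyadenylation genes 11 were higher, of 18 genes of the Mos and MAP kinase pathway 6, of 36 aminoacyl-tRNA synthetases 8, of 44 spliceosome genes 13, of 31 chaperones 21, of 23 stress response genes 4, of 37 maternal chromatin factors 10, of 44 genes of the RNA polymerase II machinery 24 and of 7 early embryonic genes 1, and 0 of any of these were lower. After scaling 0 to 1 of each were higher and 0 to 5 lower, the 5 being spliceosome genes. Of all tested genes 2.14% were higher and 2.44% lower after scaling. Their deposited medians lay between 0.73 and 1.27.

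Markers of other ovarian cells were low but present at MI. The 13 oocyte markers were all above 0 in all 4 libraries and summed to 57734.5 and 59519.8 FPKM in WT MI and 75053 and 78716.8 in KO MI. The 24 cumulus and granulosa markers summed to 1011.2 and 896.3 in WT MI and 1271.6 and 1232.9 in KO MI, with 8 to 12 of them at 0 in each library, among them Foxl2, Areg, Ereg, Pgr and Vcan in all 4. Serpine2 gave most of that sum, with 870.4 and 736.5 in WT MI and 1068 and 1059 in KO MI. Cyp19a1, the aromatase gene of granulosa cells, was at 36.5 and 32.8 in WT MI and 100.8 and 92.0 in KO MI (1.45, limma adjusted p = 0.0228; 0.50 after scaling, limma adjusted p = 0.572), and its deposited call was lost without any 1 MI library (limma adjusted p = 0.0629 to 0.118). Ptx3 and Tnfaip6, of the expanding cumulus matrix, were lower in KO on both scales. Ptx3 was at 32.1 and 40.2 in WT MI and 11.2 and 3.71 in KO MI, Tnfaip6 at 7.88 and 5.79 against 1.25 and 1.19, and both were listed at 0 in all 4 GV libraries. Both calls were lost when single MI libraries were left out (Tnfaip6, limma adjusted p = 0.0522 to 0.164). Of 16 tested cumulus and granulosa markers 2 were higher and 2 lower as deposited (all tested genes: 27.9% and 0.463%), and 0 were higher and 3 lower after scaling. The 16 markers of theca, stroma, endothelium and blood summed to 42.2 and 28.9 in WT MI and 80.0 and 86.5 in KO MI, with 11 to 14 at 0. The part of these cells in the results above was not tested.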

How the data were processed

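Polysome-bound RNA was sequenced in 12 libraries, 2 of each of 6 groups. The authors deposited FPKM values per gene. Per the submitters' processing notes the tools were CASAVA 1.8, TopHat2 2.0.11, Bowtie2 2.1.0 and Cufflinks 2.2.1, with mouse build 9 (mm9). Order and settings are not given in the labels, and depth in reads is unknown. FPKM depends on library composition, so a shift of many genes changes every value.

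Genes with a mean of at least 1 FPKM over the 12 libraries were tested with limma 3.58.1 in R 4.3.3 on log2(FPKM + 1), which understates changes of low genes, with 6 group means and an abundance trend in empirical Bayes. P-values are 2-sided and Benjamini-Hochberg adjusted over all 11667 genes, with calls below 0.05. Median scaling used genes of at least 10 FPKM. The script was tested on simulated data. Elements were searched in transcripts of GENCODE mouse release 1, matched to 11078 genes. Genes named are the 12 largest increases and 12 largest decreases called on both scales with groups that do not overlap and at least 5 FPKM in the higher group, predicted genes, clones, small RNAs and symbols at several loci left out, up to 4 called genes per list, and fixed genes, of which some are printed. 1 of the 12 decreases is not reported here. The genes, lists and rules were chosen with earlier results of these data known. Alternatives were the pseudocount, the filter, 4 other scalings, the fit of the MI libraries alone, a replicate block, no abundance trend and leaving out each library.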

Additional observations from a re-analysis of the deposited data

Results flagged for a closer look

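For the genes below the KO minus WT difference at MI differed from that at GV or at MII by limma's interaction term, on both scales. The values are median-scaled log2 differences at MI less those at the other stage. Each contains the MI difference, by which many of these genes were chosen, so the p-values are not independent of that choice. Where a group is listed at 0 in both libraries (Extl1, Rnpep, Ei24 and Pgap2 in WT MI, Wbscr16 in KO MI) the value depends on the pseudocount and is no bound.

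Against GV the difference was larger at MI for Slc35b2 (4.47), Extl1 (3.75), Rnpep (4.53), Lypd3 (3.96), the proteasome genes Psmb4 (1.68) and Psmb5 (1.84), the ribosomal protein genes Rpl14 (1.55) and Rps19 (1.53), Cox5b (1.30) and Zp3 (0.51). It was lower at MI for Tcl1 (-1.31), Tcl1b1 (-1.64), Agbl2 (-4.40), Bcat2 (-4.20) and Rrs1 (-3.29). The limma adjusted p ran from 3.5e-06 for Tcl1 to 0.0344 for Rrs1.

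Against MII the difference was larger at MI for Slc35b2 (3.32), Rnpep (3.83), Ei24 (5.53), Pgap2 (4.0), Igf2bp2 (1.67) and Zbed3 (0.67). Lower values at MI were found for abundant oocyte transcripts, namely Dppa3 (-1.98), Padi6 (-1.89), Tcl1 (-1.68), Bmp15 (-1.39), Pttg1 (-1.38), Tcl1b1 (-1.35), H1foo (-1.32), Zp3 (-1.12) and Btg4 (-0.99). Further lower values were those of Cdk1 (-2.13), Sycp3 (-1.76), Ndufa4 (-1.10) and Wbscr16 (-5.49). The limma adjusted p ran from 1.8e-07 to 0.0369.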

How the results depend on the processing

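Direction and call were kept in 1203 of the single-gene alternatives as deposited and 1197 after median scaling, 87 and 107 lost the call, 28 and 6 gained it, and 42 and 9 changed sign. Where no value or construction of an alternative shows it, the cause was not tested. Depth in reads is unknown, so what it limits cannot be given.

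For genes higher as deposited, TPM gave 498, median scaling 250, quantile normalization 213 and trend removal 201. For genes lower as deposited, a pseudocount of 0.1 gave 35, TPM 155, median scaling 285, quantile normalization 175 and trend removal 191. After median scaling, the 4 MI libraries alone gave 31 higher and 115 lower, quantile normalization 175 lower, and no abundance trend 80 lower. On both scales the 4 MI libraries alone gave 31 higher and 29 lower; the counts on both scales were added after seeing the data. Cnot6l was called with the 4 MI libraries alone (-1.49, limma adjusted p = 0.0474), after median scaling (-2.42) and after trend removal (-2.57), but not under TPM (limma adjusted p = 0.0647) or quantile normalization (0.0555). Its scaled call held in 9 of 21 alternatives and was lost with the 4 MI libraries alone (0.0665).

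Leaving out 1 library gave 1037 to 4283 higher and 18 to 69 lower as deposited, 45 to 487 and 119 to 400 after scaling, 45 to 487 and 16 to 67 on both scales, and -1.75 to -1.24 for Cnot6l (limma adjusted p = 0.0412 to 0.273). For MI less GV it gave 632 to 2611 and 7 to 43 as deposited and 29 to 183 and 45 to 144 scaled, and for MI less MII 169 to 575 and 147 to 650, and 64 to 325 and 247 to 1062. The lowest counts came without a KO MI library, and the highest of MI less MII lower without WT MII replicate 1.

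Without the abundance trend in empirical Bayes limma lost the deposited calls of Cnot7, Btg4, Ccnb1, Bmp15, H1foo, Tcl1, Pttg1, Cks2, Sycp3 and Ndufa4 (adjusted p = 0.0512 to 0.634) and the scaled calls of Cnot6l, Btg4, Mos, Gdf9, Bmp15, Zbed3, Dppa3, Rfpl4, Mad2l1, Aurkc, Mapk3, Rps28, Psmb5, Cox5b, Cox6c and Junb (up to 0.306).

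Signs changed as follows. As deposited, TPM gave Cnot7 -0.10, Cnot8 -0.18, Btg4 -0.51, Ccnb1 -0.02, Mos -0.55, Gdf9 -0.55, Bmp15 -0.18, Zbed3 -0.55 and Mad2l1 -0.50. Trend removal gave Cnot7 -0.26, Cnot8 -0.34, Btg4 -0.28, Mos -0.50, Gdf9 -0.27, Bmp15 -0.12, Zbed3 -0.25 and Mad2l1 -0.60. Median scaling gave Cnot7 -0.41, Cnot8 -0.50, Btg4 -0.83, Ccnb1 -0.34, Mos -0.87, Gdf9 -0.87, Bmp15 -0.49, Zp3 -0.06, Padi6 -0.01, Zbed3 -0.87 and Mad2l1 -0.82. Quantile normalization gave Cnot7 -0.25, Cnot8 -0.29, Btg4 -0.33, Mos -0.34, Gdf9 -0.51, Zbed3 -0.41, H1foo 0.15 and Mad2l1 -0.51. Against the median-scaled values, trend removal gave Ccnb1 0.05, Zp3 0.56 and Padi6 0.60, and quantile normalization Ccnb1 0.19, Bmp15 0.04, Zp3 0.60, Padi6 0.94 and H1foo 0.15. Leaving out 1 library gave -0.06 to 1.76 for Cnot6 scaled and, as deposited, -0.07 to 0.02 for Dppa3, -0.00 to 0.30 for Mad2l1, -0.10 to 0.07 for Mapk3 and -0.49 to 0.15 for Rps28, in each the one end without WT MI replicate 1 and the other without WT MI replicate 2. Without KO MI replicate 1, Dppa3 was at 0.01 and Mapk3 at 0.00.

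Replicate numbers did not pair the libraries: deviations of same-numbered libraries correlated at -0.029 to 0.055 over 15 pairs of groups. With the replicate block 3239 genes were higher and 53 lower as deposited and 207 and 268 scaled; MI less GV gave 1582 and 24, and 64 and 92 scaled, MI less MII 405 and 308, and 176 and 503 scaled, and Cnot6l stayed at -1.49 (limma adjusted p = 0.0858).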
